A study of Mus musculus with 2 samples.

Results

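Hedgehog signalling was described through 9 genes in the embryonic mouse heart: the ligands Shh, Ihh and Dhh, the receptors Ptch1 and Smo, the transcription factors Gli1, Gli2 and Gli3, and the ligand-binding inhibitor Hhip. They were chosen by symbol for their place in the pathway, and all 9 were found among the 55536 genes of the M21 annotation. PolyA-selected RNA of hearts from B6NCrl embryos at day 12.5 of development was measured in 2 libraries, which per the labels are biological replicates 1 and 2. Male and female embryos were pooled in each, both libraries carry the same donor identifier with a biosample of their own, and each began with 10 ng of RNA to which ERCC spike-in RNAs had been added. There was 1 group and no treatment, mutant or second stage, so the report gives levels and how far the 2 libraries differed.

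As background, a cell that makes a Hedgehog ligand attaches lipids to it and releases it, and a neighbouring cell receives it on Patched. Patched without ligand holds Smoothened inactive. Ligand lifts that block, Smoothened moves into the primary cilium, and the Gli factors are switched from repressors towards activators. Gli1, Ptch1 and Hhip are themselves transcribed in response to the signal in many tissues, and Patched and Hhip bind ligand and limit its spread. In the developing heart, Hedgehog ligand from the pharyngeal and foregut endoderm is known to act on second heart field progenitors next to it, and the pathway is also known in the epicardium and coronary vessels.

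Of the 9 genes, 5 reached 1 TPM (abundance corrected for transcript length, on a fixed total per library) in both libraries: Smo, Gli3, Ptch1, Dhh and Gli2. Gli1, Hhip, Shh and Ihh stayed below 1 TPM in both. Among all genes 25.7% reached that level, and among protein-coding genes 56.6%. The members therefore included genes well inside the detected range and genes near its floor, with Smo at the 73.2 percentile of protein-coding genes by mean TPM and Ihh at the 28.4 percentile. Values below are TPM on the M21 annotation, with the mean ± SD over 2 libraries, and coordinates are on mm10.

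**Figure D1:**
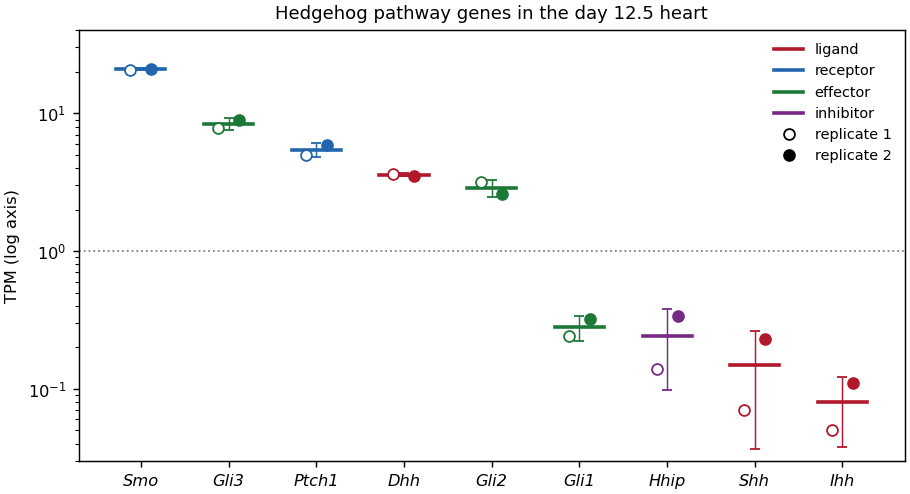
Level of each member in TPM (log axis) in replicate 1 (open points) and replicate 2 (filled points), with the mean (bar) and SD (whisker, n = 2), coloured by role. The dotted line is 1 TPM: Smo, Gli3, Ptch1, Dhh and Gli2 sit above it in both libraries, and Gli1, Hhip, Shh and Ihh sit below it in both.

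Dhh carried nearly all of the ligand RNA. Dhh (desert hedgehog, chr15:98891152-98898540, minus strand) stood at 3.63 TPM (replicate 1) and 3.51 TPM (replicate 2), a mean of 3.57 ± 0.0849, from 252.15 and 239.88 expected counts. Both libraries gave nearly the same Dhh level. Dhh is known from Schwann cells, Sertoli cells and endothelium. Its share of the summed TPM of the 3 ligands was 96.8% in replicate 1 and 91.2% in replicate 2 (94.0 ± 3.98%).

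Shh (sonic hedgehog, chr5:28456815-28467256, minus strand), the ligand of the foregut, notochord and limb organiser, had 0.07 TPM (replicate 1) and 0.23 TPM (replicate 2) (0.150 ± 0.113), from 4.55 and 14.19 expected counts. Ihh (Indian hedgehog, chr1:74945315-74951672, minus strand), the ligand of growth plate cartilage and gut, had 0.05 and 0.11 TPM (0.0800 ± 0.0424), from 3 and 6 counts. Both low ligands were higher in replicate 2, and both had too few reads for the test between libraries, which asked for a summed count of 20. The log2 ratio of replicate 2 over replicate 1 was 1.51 for Shh, with a 95% counting interval of 0.05 to 3.43, and 1.00 for Ihh, with an interval of -1.11 to 3.75. These intervals cover counting error only.

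The summed ligand TPM was 3.75 in replicate 1 and 3.85 in replicate 2. In whole tissue, a transcript at a low level in many cells and a high level in few cells give the same value, and fewer cells of a type cannot be told apart from less RNA per cell. Of the cell types in which Dhh is known, endothelial markers were detected for all 6 genes listed, from Kdr, a VEGF receptor, at 37.6 and 37.8 TPM to Emcn, an endothelial sialomucin, at 57.8 and 59.0 TPM. Neural crest and Schwann cell markers reached 1 TPM in both libraries for 2 of 6 genes, with the neuregulin co-receptor Erbb3 highest at 5.96 and 5.87 TPM and the neural crest factor Foxd3 lowest at 0.02 and 0 TPM. Which cells held the Dhh RNA was not tested.

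Dhh lies close to other genes, and this limits its value. Its exons share 546 bases with Rhebl1, a gene on the same strand with 126 and 77 counts, and 1107 bases with Gm49442, an antisense gene with 28.85 and 43.12 counts. The deposited counts divide reads between Dhh and Gm49442, and the authors' posterior SD of the Dhh count was 6.8 and 6.3. The 2 genes are on opposite strands, so strand did not keep these reads apart in counting. The strand setting itself is not given in the sources used here, so that division could not be checked. On the older M4 annotation, Dhh had 250 and 237 counts, nearly the same as on M21, and 4.67 and 4.90 TPM. The transcript models differ, with Dhh-201 at 2363 bases on M4 and 4242 on M21. The coding transcript Dhh-202, of 694 bases, is on M21 only. It held 37.3% and 30.5% of the Dhh TPM there, and 7.88% and 5.93% of the counts. Shh also has overlapping antisense models, Gm26894 with 361 shared exon bases and 1.45 and 3.81 counts, and 9530036O11Rik with 446 shared bases and no counts. Gli3 shares 188 exon bases with Gm6556, a gene on the opposite strand with 14.7 and 17.04 counts. Reads were likewise divided between Shh and Gm26894, and between Gli3 and Gm6556.

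RefSeq promoter windows of 300 bases, 250 before to 50 after the annotated start, were matched by symbol for 7 of the 9 members on GRCm38.p6, the assembly of mm10. The windows of Dhh and Ihh are printed because Dhh was the detected ligand and Ihh the lowest, and that of Ptch1 because it had the most CpG dinucleotides. Each runs 5′ to 3′ on the minus strand, and capitals mark CpG. The windows are chr15:98898491-98898790 for Dhh, chr1:74951623-74951922 for Ihh and chr13:63565686-63565985 for Ptch1.
Dhh: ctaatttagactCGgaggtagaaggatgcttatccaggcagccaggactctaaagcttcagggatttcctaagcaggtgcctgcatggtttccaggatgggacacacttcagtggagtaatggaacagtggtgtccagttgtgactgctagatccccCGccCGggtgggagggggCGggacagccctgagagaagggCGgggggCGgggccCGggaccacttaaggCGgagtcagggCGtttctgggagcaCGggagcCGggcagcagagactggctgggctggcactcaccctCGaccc
Ihh: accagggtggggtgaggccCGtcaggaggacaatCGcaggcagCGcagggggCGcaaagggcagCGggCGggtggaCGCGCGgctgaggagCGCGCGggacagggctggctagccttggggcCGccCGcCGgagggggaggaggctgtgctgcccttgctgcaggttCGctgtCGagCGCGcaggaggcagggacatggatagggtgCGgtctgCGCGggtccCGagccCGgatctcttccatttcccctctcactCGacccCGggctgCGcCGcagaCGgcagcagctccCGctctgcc
Ptch1: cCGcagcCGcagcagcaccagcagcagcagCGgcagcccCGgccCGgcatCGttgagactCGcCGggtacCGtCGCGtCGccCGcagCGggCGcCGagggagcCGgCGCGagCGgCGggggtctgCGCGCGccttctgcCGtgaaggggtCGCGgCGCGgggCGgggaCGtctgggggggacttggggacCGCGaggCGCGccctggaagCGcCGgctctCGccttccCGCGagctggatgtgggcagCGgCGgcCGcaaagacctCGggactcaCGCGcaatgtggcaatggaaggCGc

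The Dhh window held 12 CpG and the Ihh window 30, although Dhh RNA was the higher of the pair. Ptch1 held 47 CpG, more than 98.6% of the 32851 windows of that length in the table, whose median was 7. Gli3 followed with 39, Hhip with 30, Gli2 with 28 and Smo with 17. All 7 were above the median, and their CpG number did not follow the order of their RNA levels, since Smo, the highest in RNA, had fewer than Ihh, the lowest. The Smo window ends at 29735546, before the start at 29735694 of Smo-201, the transcript with most of the Smo TPM. Likewise the Gli3 window ends at 15463772, before the start at 15463980 of Gli3-201. Neither window thus holds the start of the gene's main transcript. The GLI recognition sequence GACCACCCA, searched on both strands, was in none of the 7 windows, and it was in 83 of the 32851 windows, or 0.253%. With 1 mismatch allowed it was again in none of the 7, and in 6.74% of all windows. These letters are absent from those windows, and nothing follows for sites elsewhere.

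Both receptors were detected, and Smo was the highest of the 9 members. Smo (Smoothened, chr6:29735503-29761365, plus strand), the membrane protein that passes the signal on, stood at 20.7 TPM (replicate 1) and 21.1 TPM (replicate 2) (20.9 ± 0.290), from 1810 and 1669 counts. The libraries hardly differed: the log2 ratio was 0.0034 with a 95% interval of -0.093 to 0.10. Smo RNA came mainly from Smo-201, the coding transcript, at 89.6% of the gene's TPM in both libraries, and the remainder from Smo-202, a retained intron transcript.

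Ptch1 (Patched 1, chr13:63508328-63573598, minus strand), the ligand receptor that is also a target of the pathway, stood at 4.98 TPM (replicate 1) and 5.86 TPM (replicate 2) (5.42 ± 0.622), from 722 and 772 counts. Replicate 2 was the higher. The exact binomial test on scaled counts gave a log2 ratio of 0.22 (95% interval 0.07 to 0.37) and a Benjamini-Hochberg adjusted p of 0.0408, which misses the call because the ratio is under 1. Without the demand on the ratio 9.93% of tested genes pass, Ptch1 among them. Scaled to the ERCC spike-ins the Ptch1 p rose to 0.0645.

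Ptch1 has 10 annotated transcripts on M21, and its TPM depends on how reads were divided among them. The coding transcript Ptch1-202 held 59.4% of the gene's TPM in replicate 1 and 55.1% in replicate 2. Ptch1-201, the coding transcript whose start lies in the printed promoter window, held 10.6% and 15.0%. The start of Ptch1-202 lies 1200 bases downstream of that one, outside the window. Ptch1-210, a retained intron transcript of 2216 bases, held 25.9% and 23.5% of the TPM and only 9.34% and 8.46% of the counts, since each read on a short transcript weighs more in TPM. On M4 Ptch1 had 638 and 688 counts and 3.94 and 5.00 TPM.

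Gli3 was the main Gli gene. Gli3 (chr13:15463235-15730026, plus strand), which acts largely as a repressor when no ligand is present, stood at 7.80 TPM (replicate 1) and 8.99 TPM (replicate 2) (8.39 ± 0.841), from 1113.3 and 1094.96 expected counts. Gli2 (chr1:118834132-119053619, minus strand), the main activator of the family, stood at 3.17 and 2.59 TPM (2.88 ± 0.410), from 307 and 323 counts. Gli1 (chr10:127329882-127341974, minus strand), an activator that is itself a target of the signal, stood at 0.24 and 0.32 TPM (0.280 ± 0.0566), from 20 and 28 counts. The values of the 3 genes did not overlap: in both libraries Gli3 was above Gli2 and Gli2 above Gli1.

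Of the summed Gli TPM, 11.2 in replicate 1 and 11.9 in replicate 2, Gli3 made up 69.6% and 75.5%, Gli2 28.3% and 21.8%, and Gli1 2.14% and 2.69%. Counted instead per kilobase of the longest transcript, a measure chosen after seeing the data, Gli3 made up 72.7% and 70.7%, Gli2 24.7% and 25.7%, and Gli1 2.63% and 3.64%. Gli3 had the largest and Gli1 the smallest share on both measures, while Gli2 and Gli3 moved between libraries in opposite directions on the 2 scales.

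The TPM of Gli2 was higher in replicate 1 although its scaled count was higher in replicate 2, with a log2 ratio of counts of 0.19 (95% interval -0.04 to 0.42, adjusted p 0.320 by the exact binomial test). A single short transcript accounted for this reversal. Gli2-202, a processed transcript of 367 bases, was given 8.37 reads in replicate 1 and 1.81 in replicate 2, which made 39.9% and 11.6% of the gene's TPM but 2.73% and 0.560% of its counts. The coding transcript Gli2-201 was at 1.84 and 2.18 TPM, in the direction of the counts.

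Gli3 RNA was divided between the full-length coding transcript Gli3-201 at 59.9% and 55.7% of TPM, the shorter coding Gli3-202 at 19.4% and 31.2%, and the retained intron transcript Gli3-203 at 20.8% and 13.1%. Gli3-201 was the largest in both libraries, and the other two changed places between them. By counts, Gli3-201 held 83.5% and 82.3%. In all 7 members with at least 20 counts, 1 transcript held at least 50% of the TPM in both libraries.

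**Figure D2:**
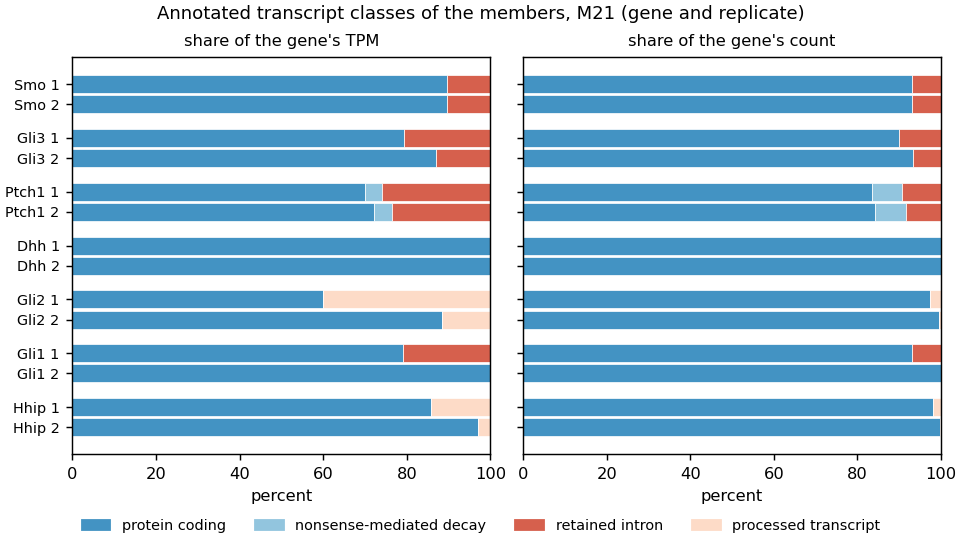
Share of each member's TPM (left) and of its counts (right), in percent, by class of annotated M21 transcript, for replicates 1 and 2 of the 7 members with at least 20 counts. Retained intron and processed transcripts take up more of the TPM than of the counts, most in Gli2 replicate 1, where a processed transcript made 39.9% of TPM and 2.73% of counts.

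Hhip was the single member called between the libraries. Hhip (Hedgehog-interacting protein, chr8:79965851-80058006, minus strand), which binds ligand at the cell surface and limits signalling, had 27 counts in replicate 1 and 68 in replicate 2. Its level was 0.14 and 0.34 TPM (0.240 ± 0.141), so replicate 2 was above replicate 1 and both were low. The log2 ratio of scaled counts was 1.44 (95% interval 0.79 to 2.15, adjusted p 0.000211 by the exact binomial test over all 17970 genes tested). Among those genes 0.718% were called higher in replicate 2 and 0.851% lower. The test compares 2 libraries, covers counting error only, and says nothing of a condition. With the summed count required to reach 100, Hhip, at 95 in all, was not tested. On M4, where the gene model is shorter, Hhip had 24 and 58 counts and 0.29 and 0.61 TPM.

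The other members tested were not called. The log2 ratio was 0.05 for Dhh (95% interval -0.21 to 0.31), 0.10 for Gli3 (-0.02 to 0.22) and 0.59 for Gli1 (-0.27 to 1.51), with adjusted p of 0.896, 0.360 and 0.418 by the exact binomial test. The Gli1 interval, from 48 counts in all, spans 0. The median ratio over the 7 tested members was 0.19, and over all genes tested it was -0.00017. Each of the 9 point estimates was above 0, except that of Smo when scaled to the spike-ins (-0.013). These include Smo at 0.0034 and the untested Shh and Ihh, and the share of all genes above 0 was not counted. In TPM on M21, Dhh (3.63 and 3.51) and Gli2 (3.17 and 2.59) were lower in replicate 2. On M4, Gli2 was again lower (3.29 and 2.70 TPM) and Dhh was higher (4.67 and 4.90 TPM). The main Dhh transcript on M21, Dhh-201, was also higher in replicate 2 (2.27 and 2.44 TPM), and the short Dhh-202 was lower (1.35 and 1.07 TPM). The 4 genes below 1 TPM had the largest ratios, and they also had the fewest counts and the widest intervals.

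**Figure D3:**
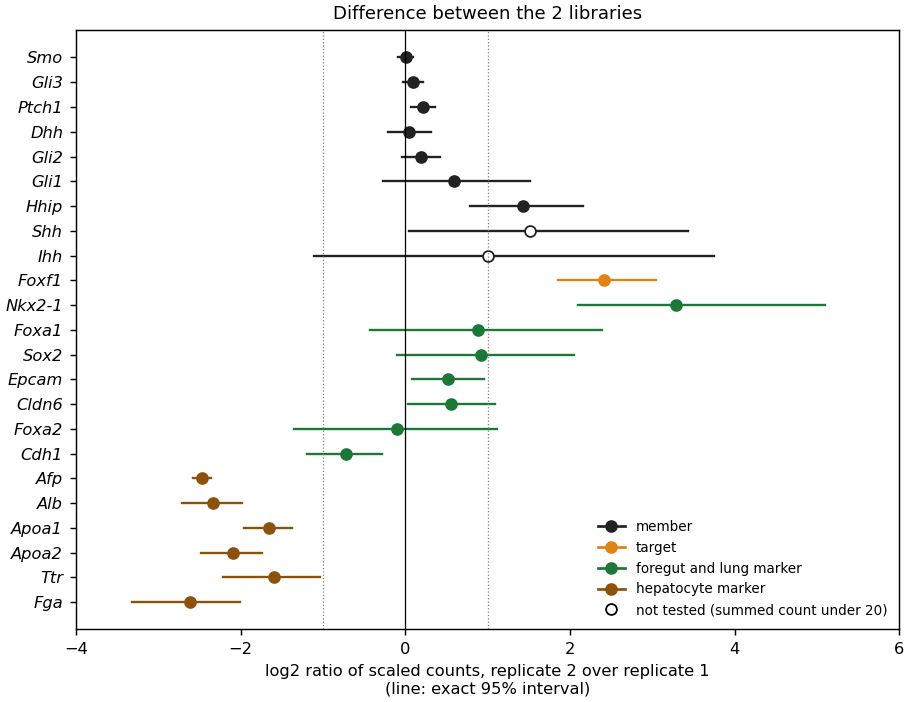
Log2 ratio of scaled counts, replicate 2 over replicate 1, with exact 95% intervals, for the 9 members, the target gene Foxf1, 7 of the 8 foregut and lung markers, and the 6 hepatocyte markers. Open points had too few counts for the test. Hhip (1.44) and Foxf1 (2.41) lie beyond the dotted line at 1 with intervals above 0, and all 6 hepatocyte markers lie below -1. Sftpc, with 0 counts in replicate 1, is not drawn.

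Markers of neighbouring tissue also differed between the libraries, in the same direction as Hhip for some and the opposite for others. Of 8 foregut and lung endoderm markers, 2 reached 1 TPM in both libraries, and together they came to 5.96 TPM (replicate 1) and 9.13 TPM (replicate 2). Nkx2-1, a lung and thyroid transcription factor, had 5 and 49 counts (0.09 and 1.02 TPM) and was called higher in replicate 2, with a log2 ratio of 3.28 and an adjusted p of 5.45e-09 by the exact binomial test. Sftpc, a surfactant protein gene, had 0 and 14 counts. The highest of the list, the epithelial adhesion gene Epcam, was at 2.24 and 3.02 TPM, and the lowest, Foxa1, at 0.10 and 0.20 TPM. Not every marker was higher in replicate 2, since Cdh1, the epithelial cadherin, was at 1.09 and 0.68 TPM.

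The 6 hepatocyte markers were each lower and called in replicate 2. Their TPM summed to 169 TPM (replicate 1) and 36.4 TPM (replicate 2), led by alpha-fetoprotein Afp at 97.5 and 18.1 TPM. Of the pharyngeal and second heart field markers, 2 of 5 were detected, with a sum of 13.3 and 12.4 TPM. Osr1, also on the list of pathway targets, was the highest at 8.39 and 7.37 TPM, and the ligand gene Fgf8 was listed at 0 in both. Tbx1 was called higher in replicate 2, with 6 and 20 counts and an adjusted p of 0.0496 by the same test. Of the chondrocyte markers, 2 of 4 were detected, with a sum of 90.3 and 89.2 TPM, from Matn1 at 0.06 and 0.05 TPM to the cartilage and valve collagen Col2a1 at 61.8 and 60.7 TPM. The part of any of these cell types in the levels of Shh, Ihh or Hhip was not tested.

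The heart label fitted the markers of heart cells. All 6 cardiomyocyte markers were detected, from the transcription factor Nkx2-5 at 157 and 165 TPM to cardiac actin Actc1 at 9442 and 9333 TPM, and none was called between libraries. The 5 epicardial markers, from Tbx18 at 14.8 and 16.1 TPM to Tcf21 at 60.0 and 58.0 TPM, were also all detected. So were the 6 mesenchyme markers, from Twist1 at 13.0 and 12.5 TPM to Col3a1 at 539 and 531 TPM. None of either list was called. Across all tested genes only 0.718% were called higher and 0.851% lower in replicate 2, so the lack of calls says little. Some markers had small ratios with narrow intervals, with Myh6 at -0.11 (95% interval -0.12 to -0.10), Col1a1 at -0.18 (-0.19 to -0.16) and Myh7 at 0.05 (0.04 to 0.06). Their intervals cover counting error only, and the libraries differed by more than that. The total expected counts were 35520161 in replicate 1 and 32577548 in replicate 2.

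The order of the members by mean TPM was Smo, Gli3, Ptch1, Dhh, Gli2, Gli1, Hhip, Shh and Ihh. Of the 8 neighbouring pairs, 5 did not overlap over the 2 libraries, and the pairs Gli1 and Hhip, Hhip and Shh, and Shh and Ihh did. The widest step was between Gli2 and Gli1, with a log2 ratio of 3.37 ± 0.35 (SE, n = 2), and it parted the 5 detected genes from the 4 others. Smo was above Gli3 by 1.32 ± 0.09, Gli3 above Ptch1 by 0.63 ± 0.01, Ptch1 above Dhh by 0.60 ± 0.14, and Dhh above Gli2 by 0.32 ± 0.12, all on the log2 scale of TPM. The design has 1 group, so no test of these ratios was made.

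Closely placed members changed places with the measure. On M4 Dhh (4.67 and 4.90 TPM) and Ptch1 (3.94 and 5.00 TPM) overlapped and the log2 ratio of Ptch1 to Dhh was -0.11. With the authors' posterior mean TPM, the log2 ratio of Dhh to Gli2 was -0.053 and their ranges overlapped. The posterior mean also put Gli1 at 0.55 and 0.66 TPM, a mean of 0.605 and over 2 times its TPM, which in both libraries lay below the authors' deposited lower bounds of 0.258 and 0.346 TPM (the level of these bounds is not stated). The step from Gli2 to Gli1 was then 2.61 in place of 3.37, and that from Gli1 to Hhip 1.06 with no overlap of their ranges. Gli1 was below 1 TPM on each of these measures. The Gli2 TPM of 2.59 in replicate 2 also lay below its deposited lower bound of 2.68 TPM. In replicate 1 the Gli2 TPM of 3.17 was above its lower bound of 2.81 TPM. Ihh moved to a posterior mean of 0.130 TPM. Gli1 and Hhip were in the order above in replicate 1 and not in replicate 2, where their log2 ratio was -0.087, and on M4 it was -0.69. Smo and Gli3 kept the first and second place, and Shh and Ihh the last, under all 4 measures compared.

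**Figure D4:**
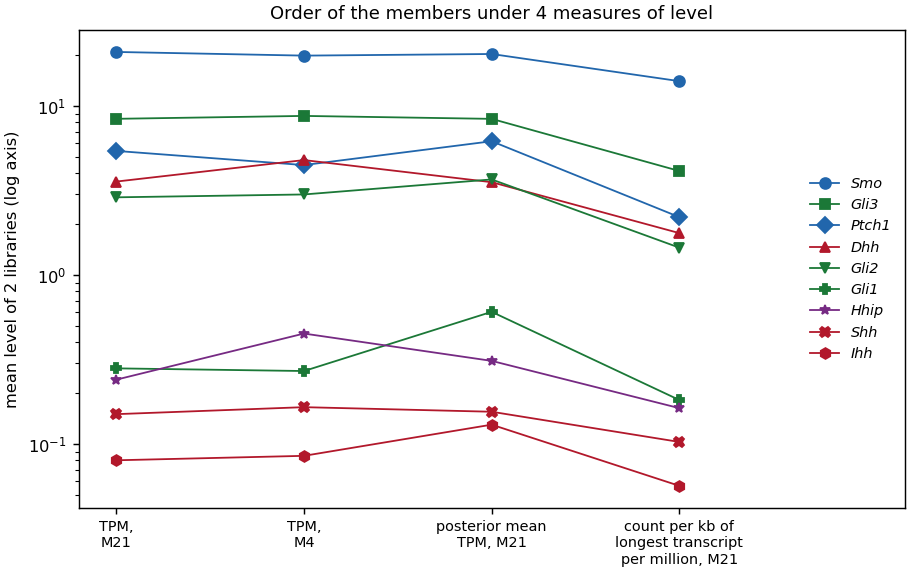
Mean level of each member over 2 libraries (log axis) as TPM on M21, TPM on M4, posterior mean TPM on M21, and counts per kilobase of the longest transcript scaled to the library's gene counts. Lines join a gene across measures: Smo and Gli3 stay highest and Shh and Ihh lowest, while Ptch1 and Dhh cross on M4, Dhh and Gli2 meet on posterior mean TPM, and Gli1 and Hhip cross on M4. Only the TPM columns share a scale.

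The rest of the pathway was represented broadly. Of 52 other pathway genes, grouped in 6 lists by function, 42 reached 1 TPM in both libraries, set against 25.7% of all genes and 56.6% of protein-coding genes. The lists hold many genes used by most cells, such as kinase and cilium subunits, and they were chosen with earlier results known. Only the neural list had no member detected.

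Genes that prepare and release ligand were present beside Dhh. Of 5, 4 were detected: Scube1, a secreted release factor, at 12.8 and 12.9 TPM, Disp1, the Dispatched release protein, at 8.52 and 9.69 TPM, Hhat, the acyltransferase that palmitoylates ligand, at 5.22 and 7.91 TPM, and Scube2. Scube3 fell short at 0.88 and 0.91 TPM. Co-receptors were likewise detected for 3 of 4. The glycolipid-anchored co-receptor Gas1 was the highest at 43.2 and 44.0 TPM and stood above Smo, followed by Boc at 6.21 and 7.23 TPM. Cdon, a co-receptor related to Boc, was at 5.46 and 6.40 TPM, and Lrp2 (megalin) at 0.58 and 0.61 TPM.

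Of the 21 intracellular regulators, 20 were detected. The highest were Prkar1a, a regulatory subunit of protein kinase A, at 397 and 398 TPM and Csnk1a1, a casein kinase, at 186 and 190 TPM. The lowest were Gpr161, a ciliary receptor that restrains the pathway, at 0.69 and 0.81 TPM and Kif7, a kinesin that works with Gli proteins in the cilium, at 3.24 and 3.11 TPM. All 10 cilium genes were detected, from Kif3b at 4.27 and 3.88 TPM and Ift88 at 4.37 and 6.31 TPM to Ift172 at 26.6 and 26.5 TPM and Kif3a at 28.3 and 29.0 TPM.

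Of 8 mesenchyme and growth targets of the pathway, 5 were detected, a share near that of protein-coding genes. They were the cyclins, Mycn, Bcl2 and Osr1, led by Ccnd2 at 509 and 521 TPM and Ccnd1 at 70.4 and 63.2 TPM, which many other signals also control. The forkhead targets missed detection, with Foxl1 at 0.61 and 0.96 TPM, Foxf2 at 0.04 and 0.14 TPM and Foxf1 at 0.53 TPM in replicate 1. None of the 4 neural tube targets was detected, with Foxa2 at 0.43 and 0.34 TPM, Nkx2-2 at 0.08 and 0 TPM, Nkx6-1 at 0.04 and 0 TPM and Olig2 listed at 0 in both.

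**Figure D5:**
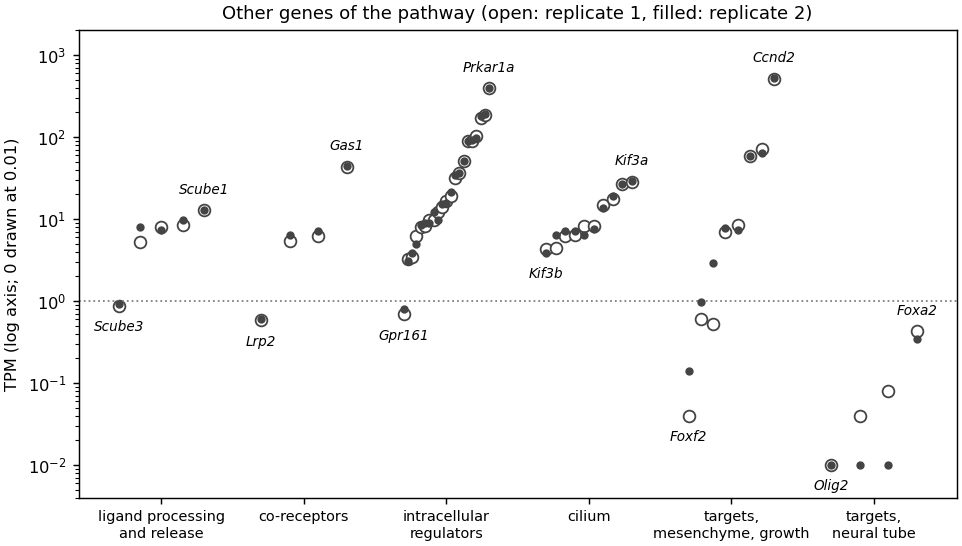
TPM (log axis, 0 drawn at 0.01) of the 52 other pathway genes in 6 lists, ordered within each list, with replicate 1 as open and replicate 2 as filled points and the highest and lowest gene of each list named. All cilium genes lie above the dotted line at 1 TPM and all neural targets below it.

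Foxf1, a forkhead factor of lung, gut and second heart field mesenchyme and a Hedgehog target there, was the single pathway gene called of the 48 tested. It had 30 counts in replicate 1 and 149 in replicate 2 (0.53 and 2.88 TPM), a log2 ratio of 2.41 (95% interval 1.86 to 3.05) with an adjusted p of 4.16e-20 by the exact binomial test. Replicate 2 was thus higher for the called genes Foxf1, Hhip and Nkx2-1. Shh had too few counts for the test, and with no count filter it was not called. Its interval of 0.05 to 3.43 covers counting error only, and the libraries differed by more than that. The relation of these genes to each other was not tested. The median log2 ratio over the 48 genes was 0.04. Over all tested genes, 0.718% were called higher in replicate 2 and 0.851% lower, so 1 call among 48 is not read as a trait of the pathway.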

How the data were processed

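PolyA RNA-seq of 2 libraries of 1 group was used. The authors deposited gene and transcript tables on mm10 for the M21 and M4 annotations. Per the file headers, expected counts are deposited, that is, estimated reads for each feature, and the deposited TPM and FPKM values are scaled by effective length, per the file headers. Aligner, counter, software versions and strand setting: not given in the sources used here. Total expected counts were 35520161 and 32577548, of which ERCC spike-ins made 3.58% and 3.63%. The 26248 rows with numeric identifiers, under 0.001% of counts, were left out.

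Levels are TPM on M21, with detection at 1 TPM in both libraries. Counts were rounded, scaled by TMM in edgeR 4.0.16 (R 4.3.3) over genes whose counts summed to 20 or more, and compared between libraries by a two-sided exact conditional binomial test in scipy 1.17.1, with Benjamini-Hochberg adjustment over 17970 genes. A gene was called at adjusted p under 0.05 and an absolute log2 ratio of at least 1, with 0.5 added to each scaled count. The quasi-likelihood test could not be fitted with 1 library a side. A chi-square of 4.01 per degree of freedom over 20136 genes showed more than sampling noise between the libraries, so each counted once. The test was tested on simulated data that held counting noise only. This could not show how it behaves with the larger spread between these libraries.

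The members and gene lists were chosen with earlier results of these data known. All members were named. Named from each pathway list were the 2 highest, the 2 lowest and any called gene, and from each marker list the highest and lowest. Markers at 0 in both libraries were counted (1, Fgf8). Nkx2-1, Sftpc, Cdh1, Tbx1, Scube2, Mycn, Bcl2, Myh6, Myh7 and Col1a1 were named after their values were seen. So were Prkaca, Cul3 and Dync2h1, which passed only without the demand on the ratio. A pathway gene that the rule names is not reported here and was left out of the list counts. No gene was named for a pattern like a member's. Promoters came from RefSeq (GRCm38.p6). Alternatives were another annotation, unit, scaling, filter and threshold, DESeq2 1.42.0 size factors, and leaving out each library.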

Additional observations from a re-analysis of the deposited data

How the results depend on the processing

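Under the alternatives tried, the count of detected members stayed at 5 except at a threshold of 5 TPM, where it was 2 (Smo and Gli3). Leaving out replicate 1 or replicate 2 gave 5 each. Of the 36 ordered pairs of members, 34 to 36 kept their direction. The log2 ratio reversed to -0.11 for Ptch1 to Dhh and to -0.69 for Gli1 to Hhip on M4, to -0.053 for Dhh to Gli2 with posterior mean TPM, and, for Gli1 to Hhip, to -0.087 without replicate 1, against 0.78 without replicate 2. The cause was not tested. With a summed count of at least 100, 60 genes were called between the libraries in place of 282, and 0 members, since Hhip was then not tested. With no demand on the ratio, 1784 genes were called, or 9.93% of those tested. Among them were 2 of 7 tested members (Hhip and Ptch1). Of the 48 other pathway genes tested, 6 were called (Hhat, Prkaca, Cul3, Dync2h1, Foxf1 and Ccnd2). Whether pathway genes passed more often than other genes was not tested. Scaling by DESeq2 size factors, by total counts or by spike-ins left Hhip the single member called. No paired analysis was possible because there is 1 group. The planned comparison of member proteins was not run. At these depths Shh and Ihh each have a count under 20 summed over both libraries, too few for the test between libraries. With posterior mean TPM, Gli1 was at 0.605 in place of 0.280.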
